A study of Saccharomyces cerevisiae with 8 samples.

Results

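Genes within 20 kb of a chromosome end were followed in newly made RNA of budding yeast carrying 3 mutant alleles of Mediator. The set held every coding transcript of the deposited annotation whose start or end lies less than 20000 nt from an end of its nuclear chromosome (genome build R64), apart from 7 genes left out by name (ENB1, GIT1, ARN2, FRE2, IMD2, MMP1 and MHT1). It comprised 88 of the 4928 coding transcripts and of the 6030 transcripts in all, placed on 26 of the 32 chromosome ends at 1794 to 19750 nt from the end. The annotation covers the region in part: RefSeq lists 246 coding genes within the same limit, and 93 of these have a transcript in it.

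The tested groups were strains with the alleles med7-1002, med21-1002 and med10-1002, and the fourth group was their parent, with 2 libraries (n = 2) in each. Med7, Med21 and Med10 are subunits of the middle module of Mediator, the complex that carries signals from gene-specific activators to RNA polymerase II. All 4 strains are labelled MATa and share a mutant background, so the parent is itself no wild type. It comprises the auxotrophic markers trp1-1, ura3, ade-, leu2-3,112 and his3-11,15, the resistance alleles cyh2r and can1-100, hsp82-, and the reporter DHSE-lacZ. Cultures grew at 30 °C in rich glucose medium to an OD600 of 0.8 and took up 5 mM 4-thiouracil for 6 min, and RNA made in that window was purified before sequencing. The labels do not say whether the libraries of a group came from separate cultures; p-values therefore reflect only the variation between these samples, which may be technical.

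The ends of yeast chromosomes are packed by the Sir proteins and other silencing factors, which bind near telomeres and at subtelomeric elements. Gene families for using uncommon sugars, transporting nutrients, detoxifying metals and building the cell wall lie there, often in several similar copies, and many are kept low in rich glucose medium and induced when conditions change. In this yeast the Mediator tail module is known to act on subtelomeric genes, and the middle module joins the tail to the head of the complex.

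Assigned counts ranged from 10962170 (med7, replicate 1) to 23629303 (med7, replicate 2). The med7 libraries were the least alike: the SD of the log2 difference between both replicates over all tested transcripts was 0.924 in med7, against 0.367 in med21, 0.23 in med10 and 0.269 in parent. They also differed in mating type genes. BAR1, which a cells express, had 123 and 191 CPM in med7, 2.76 and 1.76 CPM in med21, 4.39 and 4.22 CPM in med10, and 4.68 and 4.03 CPM in parent, while STE3, a gene of alpha cells, had 2.11 and 0 CPM in med7 and 287 to 390 CPM in the other libraries. The libraries labelled med21, med10 and parent therefore go against the labelled MATa, and in every comparison with med7 the allele and this difference cannot be told apart. CPM are counts per 1000000 assigned counts, scaled by TMM, and replicate 1 precedes replicate 2 wherever a pair of values is given. Since spike-in counts were not used, all values are relative to the other RNA of a library, and fewer cells making an RNA cannot be told apart from less of it made per cell.

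In parent, these genes were made at modest rates. The median over the 88 was 53.3 CPM, against 81.4 CPM over all coding transcripts, 7 stood under 1 CPM and 10 over 500 CPM. Of the 88, 83 passed the filter on low counts. The 5 that did not were COS12, YNR071C, HXT17 and MAN2, which had at most 5 counts in any library, and PXP3, which had 3 and 0 counts in med7, 1 and 0 in med21, 11 and 13 in med10, and 6 and 4 in parent.

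The sequences before the annotated starts of 7 genes are shown because these genes carry the patterns described next: low in med7 and med21 and high in med10 (BDS1, IRC7, and SEO1, whose med10 difference from parent was not called), high in med10 (YIR042C), high in med21 and med10 (MAL31, MAL11), or high in med7 and med21 (GTT1). Each is the 250 bases of the R64 genome (RefSeq) before the transcript start, 5′ to 3′ on the gene's strand, and capitals mark 3 motifs read on either strand: TATAAA (the core of the TATA box), CACGTG (the core bound by Cbf1) and AGGGG (the core of the stress response element).
SEO1 (chrI:9050-9299, minus strand): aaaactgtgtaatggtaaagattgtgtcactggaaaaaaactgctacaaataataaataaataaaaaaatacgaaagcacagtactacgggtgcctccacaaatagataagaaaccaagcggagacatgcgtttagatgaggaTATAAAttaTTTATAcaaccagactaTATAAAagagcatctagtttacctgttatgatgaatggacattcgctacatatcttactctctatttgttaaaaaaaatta
BDS1 (chrXV:5647-5896, plus strand): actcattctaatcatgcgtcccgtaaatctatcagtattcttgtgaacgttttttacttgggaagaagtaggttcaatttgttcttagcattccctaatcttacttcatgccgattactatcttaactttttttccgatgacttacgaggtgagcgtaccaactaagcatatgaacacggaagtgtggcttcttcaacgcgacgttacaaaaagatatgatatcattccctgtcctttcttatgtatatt
IRC7 (chrVI:263929-264178, plus strand): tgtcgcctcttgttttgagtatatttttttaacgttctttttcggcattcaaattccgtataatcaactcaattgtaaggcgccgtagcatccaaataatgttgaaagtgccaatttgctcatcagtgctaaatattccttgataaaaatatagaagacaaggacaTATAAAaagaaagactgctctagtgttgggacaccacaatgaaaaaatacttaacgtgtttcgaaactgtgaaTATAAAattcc
YIR042C (chrIX:435984-436233, minus strand): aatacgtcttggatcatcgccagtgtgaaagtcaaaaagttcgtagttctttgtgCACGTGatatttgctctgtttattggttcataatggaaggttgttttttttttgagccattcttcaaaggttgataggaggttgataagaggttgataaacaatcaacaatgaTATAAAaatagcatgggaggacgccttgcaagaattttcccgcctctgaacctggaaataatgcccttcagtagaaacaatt
MAL31 (chrII:804873-805122, minus strand): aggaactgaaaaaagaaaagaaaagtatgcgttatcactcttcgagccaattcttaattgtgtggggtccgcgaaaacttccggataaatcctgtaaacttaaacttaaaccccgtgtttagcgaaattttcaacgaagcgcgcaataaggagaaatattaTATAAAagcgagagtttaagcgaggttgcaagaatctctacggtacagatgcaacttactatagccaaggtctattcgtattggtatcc
MAL11 (chrVII:1076151-1076400, minus strand): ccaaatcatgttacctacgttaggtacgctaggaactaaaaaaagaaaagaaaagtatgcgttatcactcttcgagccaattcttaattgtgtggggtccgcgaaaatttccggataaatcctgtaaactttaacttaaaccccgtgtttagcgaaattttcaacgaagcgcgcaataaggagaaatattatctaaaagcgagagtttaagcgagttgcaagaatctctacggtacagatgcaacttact
GTT1 (chrIX:424538-424787, minus strand): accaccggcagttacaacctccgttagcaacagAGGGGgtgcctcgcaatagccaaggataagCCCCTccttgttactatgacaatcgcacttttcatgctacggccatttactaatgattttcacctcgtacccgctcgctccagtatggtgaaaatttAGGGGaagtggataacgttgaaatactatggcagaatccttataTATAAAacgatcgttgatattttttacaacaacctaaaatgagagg

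TATAAA stands in the windows of SEO1, IRC7, YIR042C, MAL31 and GTT1. It was found in 46 of the 88 windows (52.3%), in 24 of the 44 windows of genes lower in med21 than in med10 (54.5%), and in 41.7% of the windows of all 4928 coding transcripts. CACGTG was found in 4.55% of the 88 windows and 3.90% of all windows, among them that of YIR042C. AGGGG was found in 20.5% of the 88 windows, in 11.4% of those of the 44 genes, and in 19.6% of all windows. No site of these 3 motifs stands in the windows of BDS1 and MAL11, and that of BDS1 overlaps the noncoding transcripts SUT761 and XUT_15R-8. The windows of MAL31 and MAL11, paralogues on chromosomes II and VII, share a run of 69 identical bases.

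As a group, the 88 genes took a smaller share of the RNA in med7 and med21, and a slightly larger one in med10. They held 0.868% and 0.922% of assigned counts in med7, 1.176% and 1.227% in med21, 1.626% and 1.681% in med10, and 1.549% and 1.524% in parent. No group overlapped another. An exact permutation test gave p = 0.333 (two-sided) for each mutant against parent, the smallest p that 2 against 2 libraries allow. Groups that do not overlap give this value whatever the size of the difference, so the test cannot decide whether the shares differ. ERO1, the ER thiol oxidase and the gene with the most counts, did not set this order: without it the shares were 0.764% and 0.792% in med7, 0.947% and 1.00% in med21, 1.40% and 1.445% in med10, and 1.273% and 1.252% in parent.

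**Figure D1:**
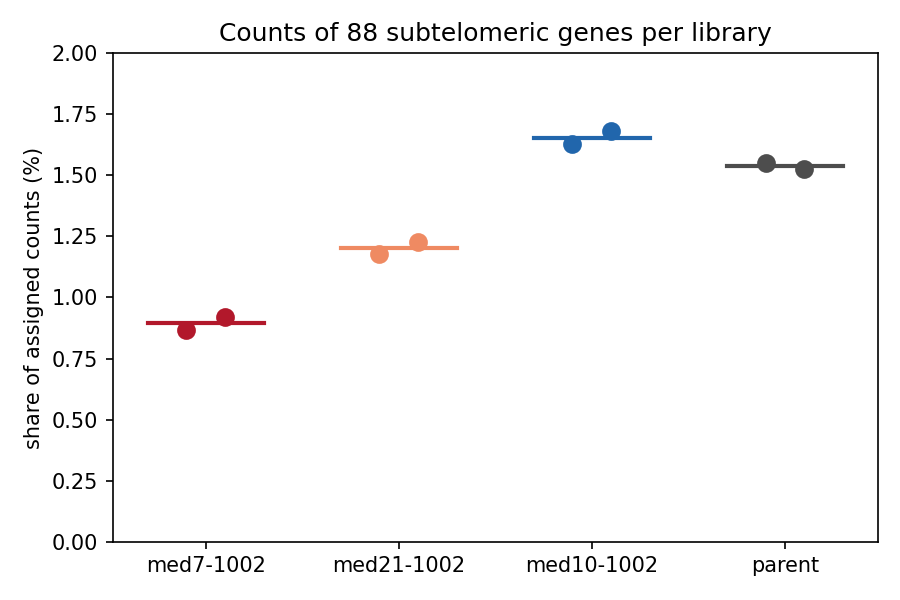
Share of assigned counts (%, vertical axis) that fell on the 88 genes in each library, by group; points are libraries and bars are group means. Both med7 libraries lie under 1%, both med21 libraries near 1.2%, and both med10 libraries above both parent libraries.

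Most of the single genes that changed were lower in med7 and med21 and higher in med10. Changes were called with edgeR's quasi-likelihood test at a Benjamini-Hochberg adjusted p under 0.05 over the 5746 tested transcripts. In med7, 39 of the 83 genes fell and 7 rose, where 22.6% of all tested transcripts fell and 25.9% rose; the median log2 fold change against parent was −0.51 for the genes and 0.02 for all transcripts. In med21, 20 fell and 4 rose, where 3.92% of all transcripts fell and 3.88% rose, with medians of −0.34 and 0.00. In med10, 13 rose and none fell, where 4.93% of all transcripts rose and 2.63% fell, with medians of 0.32 and −0.01. At an unadjusted p under 0.05 the med10 counts were 33 higher and 3 lower, and with DESeq2 25 rose and 1 fell, where 9.62% and 5.86% of all transcripts did. No gene was called in the same direction in all 3 mutants, which share the parent libraries. Both mutant libraries lay below both parent libraries for 52 genes in med7 and 48 in med21, against 16 in med10, where 35.9%, 31.9% and 39.0% of all transcripts did so.

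The number of genes that passed changed with the libraries in the fit, and so did the share of all transcripts that passed. For fits that left out 1 library, here and below, that share is not given. Their counts show how the calls depend on the libraries and cannot be read as results about the set. Without the med7 libraries, 39 fell and 14 rose in med21, where 14.9% and 14.8% of all transcripts did, and 41 rose and 5 fell in med10, where 20.8% and 16.0% did. In fits of only the 2 groups compared, 32 fell and 9 rose in med21, where 10.9% and 10.6% of all transcripts did, and 48 rose and 8 fell in med10, where 26.6% and 26.2% did. Without either med7 library alone, 38 and 37 genes fell in med21, and 39 rose in med10 in both cases. Leaving out a parent library left 4 (replicate 1) or 7 (replicate 2) falls in med21 and 2 rises in med10 in both cases. Leaving out a library of the mutant itself left 6 or 4 falls in med21 and 6 rises in med10, and leaving out a med10 library left 13 or 10 falls in med21. The rises in med21 numbered 2 and 1 without parent replicate 1 and 2, 14 without either med7 library, and 2 without med21 replicate 2, and the falls in med10 numbered 5 without either med7 library. In med7, 4 genes rose without parent replicate 2 and 11 without med7 replicate 1. Among the genes named below by rule, the med21 calls that held whichever library was left out were those of SEO1, BDS1, IRC7 and MAL11 (4 of 20), and the med10 calls were those of ADH4 and MAL11 (2 of 12). In med7 24 of 33 held; AAD10, ADH6, ARR3, PKC1 and RDS1 were lost without parent replicate 1, GAB1 without parent replicate 2, and IRC24, MAL13 and RET2 without either parent library and others.

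In the comparison of med21 with med10, the fold changes use no parent library. The calls do, because the filter, the scaling and the estimate of spread came from all 8 libraries. Here 44 of the 83 genes were lower in med21 and 4 were higher, where 10.6% of all transcripts were lower and 9.38% were higher, and the median log2 difference was −0.70 over the genes and 0.03 over all transcripts. For 29 genes the called difference was at least 2-fold and downward, and for 1 it was at least 2-fold and upward. The share of all transcripts called at that size is not given, so these counts cannot be read against it. Leaving out a med21 or a med10 library left 21 or 22 lower and 1 or 2 higher genes, and 9 were higher without either med7 library. In med7, 49 genes were lower and 9 higher than in med10, where 25.0% and 29.9% of all transcripts were, and 22 were lower and 6 higher than in med21, where 18.6% and 22.1% were. The 9 became 3 without either med10 library and 4 without parent replicate 2. The 6 became 11 without either med7 library, and the 22 became 39 without med7 replicate 2 and 13 without med21 replicate 1. Without the med7 libraries, 55 genes were lower and 8 higher in med21 than in med10, where 24.9% and 22.4% of all transcripts were. In fits of 2 groups, 55 were lower and 7 higher in med21 than in med10, where 22.7% and 19.3% of all transcripts were, 44 lower and 4 higher in med7 than in med10, where 18.8% and 21.9% were, and 11 lower and 3 higher in med7 than in med21, where 9.37% and 14.2% were. Across the 83 genes the log2 fold change of med7 against parent and that of med21 against med10, which share no library, had a Spearman correlation of 0.65, beside 0.37 across all tested transcripts; genes are not independent replicates.

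**Figure D2:**
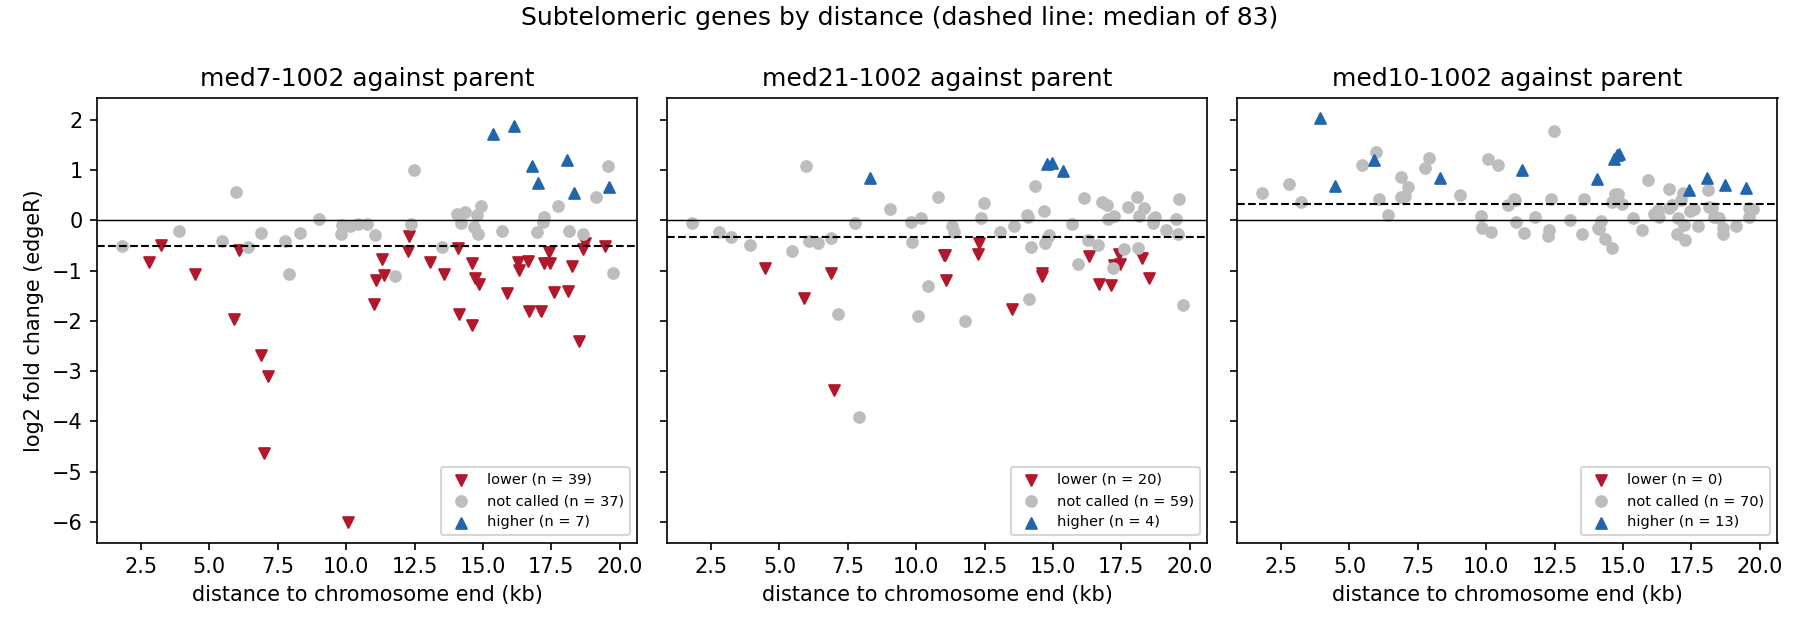
Log2 fold change against parent (vertical axis) of the 83 tested genes by distance to the chromosome end (kb, horizontal axis) in med7-1002, med21-1002 and med10-1002. Triangles pointing down and up are genes called lower and higher, circles are genes not called, and the dashed lines at −0.51, −0.34 and 0.32 are the medians.

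The 2 tested genes of the sulfur and organic anion list, SEO1 and BDS1, both fell in med7 and in med21. Of all transcripts, 22.6% and 3.92% fell in these mutants. SEO1 (YAL067C, chromosome I, 7013 to 9049, minus strand), a putative permease, had 9.75 and 13.1 CPM in med7, 29.3 and 25.9 CPM in med21, 406 and 397 CPM in med10, and 295 and 279 CPM in parent. It was 24.8-fold lower in med7 (log2 −4.63, SE 0.17, adjusted p = 2.68e-06) and 10.4-fold lower in med21 (log2 −3.38, SE 0.16, adjusted p = 1.42e-05). In med10 both libraries lay above both parent libraries, but the difference did not pass (log2 0.48, SE 0.14, adjusted p = 0.075).

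BDS1 (YOL164W, chromosome XV, 5897 to 8205, plus strand), a sulfatase that releases sulfate from alkyl and aryl sulfates, was called in all 3 mutants with the sign differing. It had 26.8 and 35.9 CPM in med7, 44.6 and 40.5 CPM in med21, 296 and 275 CPM in med10, and 129 and 118 CPM in parent. It fell 3.93-fold in med7 and 2.90-fold in med21 and rose 2.31-fold in med10 (log2 1.21, SE 0.15, adjusted p = 0.00313); the rise did not pass without parent replicate 1 or 2. Noncoding transcripts on the other strand cover 87.7% of it. IRC7 (YFR055W, chromosome VI, 264179 to 265704, plus strand), a beta-lyase of cysteine conjugates, had 92.2 and 88.0 CPM in med7, 99.2 and 95.5 CPM in med21, 301 and 307 CPM in med10, and 188 and 190 CPM in parent. The 4 groups kept the order seen in BDS1, with a log2 fold change of −1.07 in med7, −0.96 in med21 and 0.68 in med10, all called; the last was lost without any 1 of the parent or med10 libraries.

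AGP3, an amino acid permease, had 27.7 and 56.9 CPM in med7, 64.5 and 59.6 CPM in med21, 172 and 184 CPM in med10, and 153 and 147 CPM in parent, and its falls were 3.51-fold and 2.42-fold. PHO89, the sodium-phosphate cotransporter, had 273 and 360 CPM in med7, 283 and 248 CPM in med21, 382 and 396 CPM in med10, and 566 and 574 CPM in parent. It was below parent in every mutant library and was called in med7 (log2 −0.85) and med21 (log2 −1.10), not in med10 (log2 −0.55, adjusted p = 0.068). The AGP3 fall in med21 was lost without any 1 of the parent or med21 libraries, and the PHO89 fall in med21 without med21 replicate 2. SGE1, a multidrug exporter, fell by 0.31 and 0.46 on the log2 scale in med7 and med21. Of the pair listed as other transporters, AGP3 and RDS1, both fell in med7 and 1 in med21, where 22.6% and 3.92% of all transcripts fell. RDS1, a zinc cluster factor, had 207 and 378 CPM in med7, 469 and 414 CPM in med21, 880 and 823 CPM in med10, and 540 and 498 CPM in parent.

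Of 7 tested genes of sugar use, 2 fell in med7 (MAL33 and MAL13), 2 rose and 1 fell in med21, and 3 rose in med10. Of all transcripts, 22.6% fell in med7, 3.88% rose and 3.92% fell in med21, and 4.93% rose in med10. The 2 falls of 7 in med7 are thus near the share of all transcripts. The median log2 fold changes of the 7 genes were 0.11 in med7, 0.34 in med21 and 0.85 in med10. MAL11 (YGR289C, chromosome VII, 1073824 to 1076150, minus strand), an alpha-glucoside permease, had 38.6 and 40.9 CPM in med7, 73.3 and 86.4 CPM in med21, 91.1 and 90.4 CPM in med10, and 37.2 and 36.6 CPM in parent. It rose 2.16-fold in med21 (log2 1.11, SE 0.13, adjusted p = 0.00118) and 2.46-fold in med10 (log2 1.30, SE 0.13, adjusted p = 0.00145), and both calls held whichever library was left out. MAL31 (YBR298C, chromosome II, 802538 to 804872, minus strand), the maltose permease at the MAL3 locus, had 93.4 and 80.0 CPM in med7, 165 and 206 CPM in med21, 184 and 187 CPM in med10, and 106 and 101 CPM in parent, a rise of 1.80-fold in med21 and in med10. The MAL31 rise in med21 was lost without parent replicate 1 or 2 or med21 replicate 2. Its rise in med10 was lost without any 1 of the parent or med10 libraries. Thus the permeases were high in med21 and med10. Neither was called in med7, where MAL11 was near parent and both MAL31 libraries lay below it (log2 −0.25, adjusted p = 0.169).

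The activators fell in med7. MAL33 (YBR297W), the MAL activator beside MAL31, had 28.9 and 36.8 CPM in med7, 66.0 and 63.3 CPM in med21, 138 and 141 CPM in med10, and 110 and 98.4 CPM in parent. It was lower in med7 (3.16-fold) and in med21 (1.61-fold), where MAL31 was higher. The MAL33 fall in med21 was lost without any 1 of the parent or med21 libraries or without med10 replicate 2. MAL13, the activator beside MAL11, had 30.8 and 39.1 CPM in med7, 53.9 and 46.8 CPM in med21, 80.2 and 75.2 CPM in med10, and 48.4 and 47.7 CPM in parent, a fall in med7 (log2 −0.45) and a rise in med10 (log2 0.69). The fall was not called without parent replicate 1 or 2, med7 replicate 1 or med10 replicate 2, and the rise was called in only 2 of 8 fits that left out a library, those without a med7 library. YPR196W (chromosome XVI, 931347 to 933220), a putative activator of the same family, had 14.4 and 19.5 CPM in med7, 36.2 and 30.9 CPM in med21, 103 and 102 CPM in med10, and 41.5 and 40.5 CPM in parent. It fell 2.40-fold in med7 and rose 2.5-fold in med10, the rise being lost without parent replicate 1 or 2. The maltases MAL12 and MAL32 stood between 0.551 and 5.39 CPM in all libraries, no change was called, and 85.4% and 82.7% of their 30-base words recur elsewhere in the genome, so reads may be shared between copies.

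The 3 aryl-alcohol dehydrogenase genes matched by name, AAD4, AAD10 and AAD14, all fell in med7, where 22.6% of all transcripts fell. AAD4 and AAD10 fell in med21, where 3.92% of all transcripts fell, and AAD10 rose in med10, where 4.93% rose. All 3 were lower in med21 than in med10, where 10.6% of all transcripts were. The AAD4 and AAD10 falls in med21 and the AAD10 rise in med10 were lost without any 1 library of parent or of that mutant. The AAD10 rise was also lost with library size alone or a replicate block. YFL057C (AAD16), of the same family, had no RefSeq match and was left out of this list. It was not called against parent in any mutant, nor in med21 against med10. AAD14 did not pass in med21 (log2 −0.88, adjusted p = 0.0931). The genes of this family are similar copies, and how reads with several matches were counted is not given in the sources used here. AAD10 had 38.0 and 40.5 CPM in med7, 34.0 and 43.4 CPM in med21, 89.3 and 95.5 CPM in med10, and 64.6 and 57.7 CPM in parent. AAD4 had 101 and 135 CPM in med7, 100 and 131 CPM in med21, 233 and 247 CPM in med10, and 222 and 201 CPM in parent. For both genes the med7 and med21 libraries overlapped one another and lay below the rest.

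SRY1, which breaks down 3-hydroxyaspartate, had 10.7 and 16.4 CPM in med7, 18.8 and 20.7 CPM in med21, 57.5 and 68.9 CPM in med10, and 49.6 and 46.4 CPM in parent, with falls of 3.5-fold and 2.43-fold. AYT1, an acetyltransferase for trichothecene toxins, had 19.2 and 20.6 CPM in med7, 48.3 and 33.1 CPM in med21, 99.7 and 118 CPM in med10, and 78.7 and 89.5 CPM in parent, with falls of 4.23-fold and 2.06-fold. The SRY1 fall in med21 was lost without parent replicate 1 or either med21 library. The AYT1 fall in med21 was lost without parent replicate 1 or 2 or med21 replicate 2. FDC1, the ferulic acid decarboxylase, fell by 0.91 in med7 and by 0.75 in med21 on the log2 scale. DLD3, a D-lactate dehydrogenase, had 450 and 602 CPM in med7, 628 and 633 CPM in med21, 1095 and 1089 CPM in med10, and 1031 and 1048 CPM in parent. In these 4 genes all med7 and med21 libraries lay below all med10 and parent libraries.

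ADH4 (YGL256W, chromosome VII, 14661 to 16524, plus strand), an alcohol dehydrogenase, was called in med10 and not in med7 or med21. It had 59.8 and 71.2 CPM in med7, 81.2 and 80.8 CPM in med21, 173 and 159 CPM in med10, and 71.8 and 71.6 CPM in parent, and the med10 rise was 2.31-fold (log2 1.21, SE 0.12, adjusted p = 0.00155) and held whichever library was left out. Against med10, med21 was lower (log2 −1.04, adjusted p = 0.00098). ADH6, another alcohol dehydrogenase, instead fell in med7 and med21, by 0.60 and 0.67 on the log2 scale. The ADH6 fall in med21 was lost without any 1 of the parent or med21 libraries or without med10 replicate 2.

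YIR042C (chromosome IX, 434836 to 435983, minus strand, 3905 nt from the end), a gene of unknown function, had the largest fold rise in med10 among the called genes. It had 8.35 and 12.8 CPM in med7, 7.37 and 10.2 CPM in med21, 49.3 and 51.6 CPM in med10, and 11.5 and 13.2 CPM in parent. The rise was 4.08-fold (log2 2.03, SE 0.25, adjusted p = 0.00309), was lost without parent replicate 1 or 2, and set med10 apart from the 3 other groups, which lay close together. YAL064W-B, of unknown function, had 31.6 and 32.5 CPM in med7, 51.1 and 49.6 CPM in med21, 113 and 106 CPM in med10, and 55.0 and 54.3 CPM in parent; it fell 1.71-fold in med7 and rose 2.0-fold in med10. The other rises in med10 were those of PEX6, a peroxisome biogenesis ATPase, NRE1 and YER186C, by 0.65, 0.84 and 0.81 on the log2 scale.

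**Figure D3:**
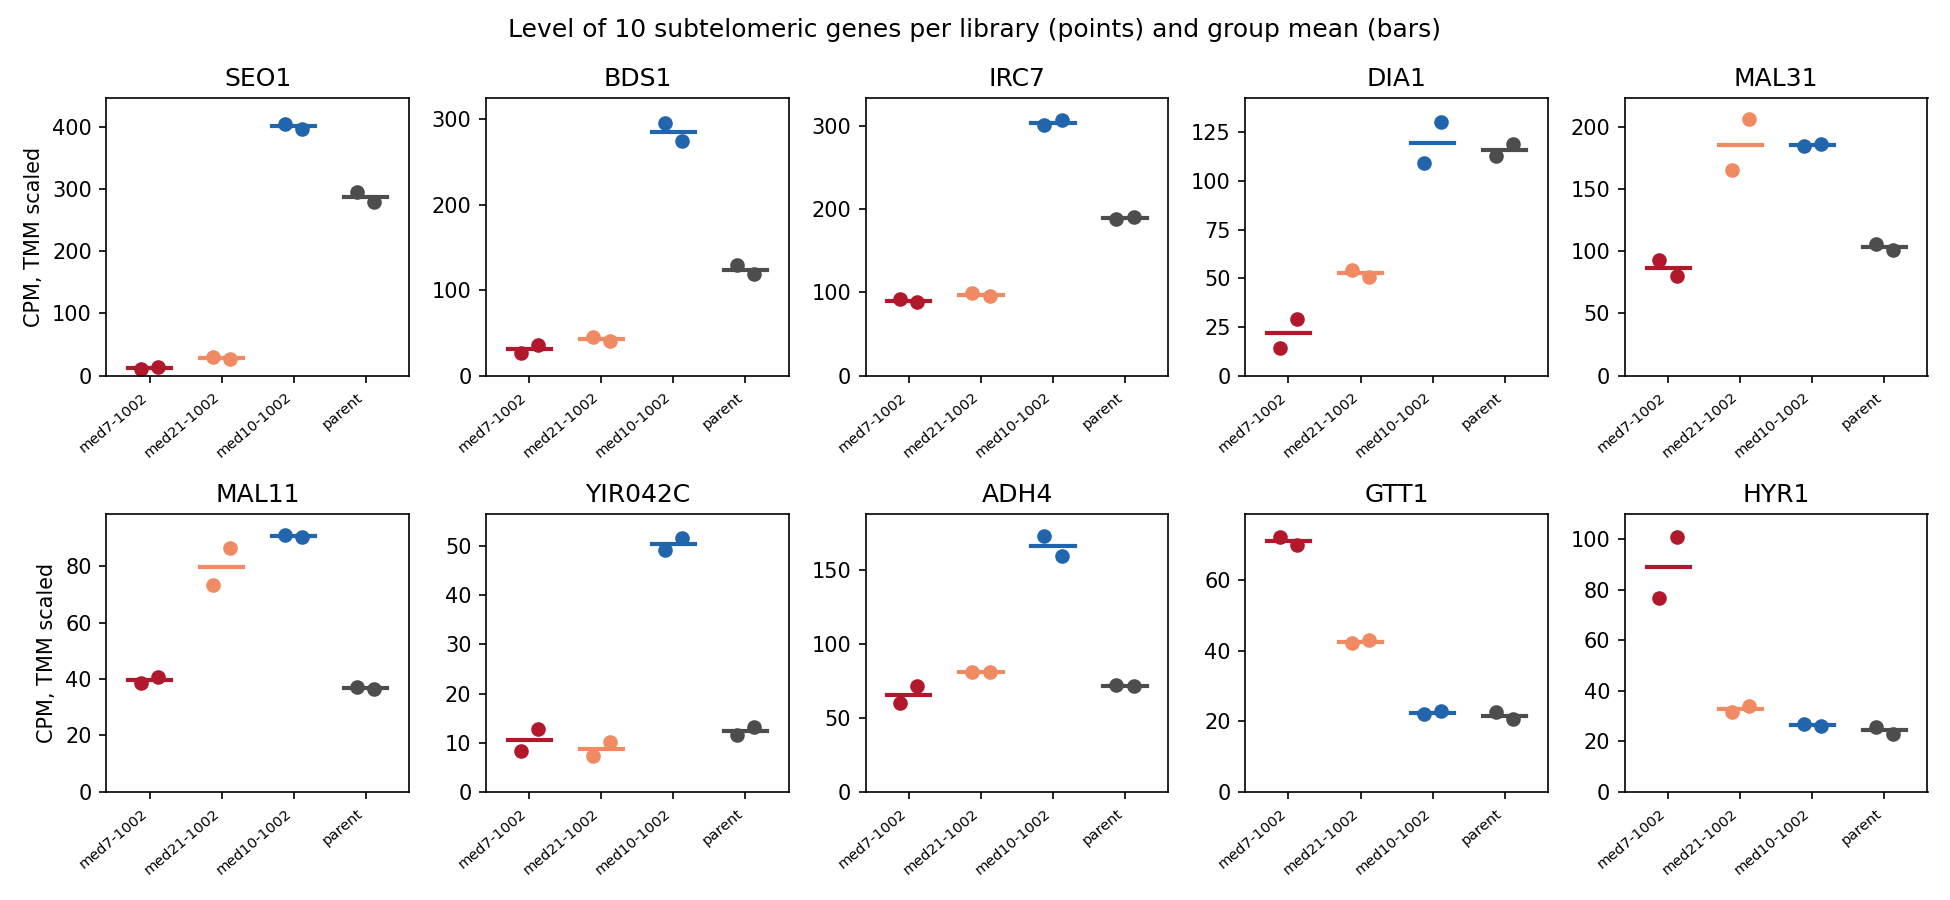
Level (CPM, TMM scaled, linear axis from 0) of 10 genes in each library; points are libraries and bars are group means, with the mutants left of parent. SEO1, BDS1 and IRC7 are low in med7-1002 and med21-1002 and highest in med10-1002, where the SEO1 difference from parent was not called. MAL31 and MAL11 are high in med21-1002 and med10-1002, and GTT1 and HYR1 are highest in med7-1002.

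A stretch of the right arm of chromosome IX rose in med7, where 39 genes of the set fell. NRE1, IRC24, HYR1 and GTT1 lie next to each other between 420956 and 424537, and all 4 were called higher in med7, where 25.9% of all transcripts were. The IRC24 call was lost when parent replicate 1 or 2 or med10 replicate 1 was left out, and also under scaling by library size alone or length correction. GTT1 (YIR038C, 423687 to 424537, minus strand), a glutathione transferase, had 72.4 and 69.9 CPM in med7, 42.2 and 43.0 CPM in med21, 22.1 and 22.8 CPM in med10, and 22.7 and 20.5 CPM in parent. It rose 3.29-fold in med7 (log2 1.72, SE 0.13, adjusted p = 2.16e-05) and 1.97-fold in med21 (log2 0.98, SE 0.13, adjusted p = 0.00261; not called without parent replicate 2). HYR1 (YIR037W, 423067 to 423766, plus strand), a peroxidase that senses hydrogen peroxide, had 76.9 and 101 CPM in med7, 31.7 and 34.1 CPM in med21, 26.9 and 25.9 CPM in med10, and 25.7 and 22.9 CPM in parent, a rise of 3.66-fold in med7. The ends of GTT1 and HYR1 overlap on opposite strands, and a noncoding transcript on the other strand covers 89.6% of NRE1. On the same arm, YPS6, PAU15 and YIR042C, which lie nearer to the end, stood below or about parent in med7 (log2 −0.41, −0.42 and −0.21, none called).

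The remaining rises in med7 were those of RPN12, a subunit of the proteasome lid, GAB1, of the GPI transamidase, and RET2, of the coatomer, by 1.08, 0.67 and 0.55 on the log2 scale. RPN12 had 122 and 168 CPM in med7, 93.4 and 82.5 CPM in med21, 85.6 and 83.5 CPM in med10, and 73.3 and 63.3 CPM in parent. MSC1 rose in med21, with 62.6 and 128 CPM in med7, 164 and 182 CPM in med21, 103 and 92.5 CPM in med10, and 83.1 and 73.2 CPM in parent (log2 1.14, adjusted p = 0.0394), a call that leaving out any 1 of the parent, med21 or med10 libraries ended. COX14, a factor of cytochrome oxidase assembly next to MSC1, RSC9, a subunit of the RSC remodeller, and VAC17, which hands vacuoles to the bud, were higher in med21 than in med10 with GTT1, by 1.06, 0.57 and 0.47 on the log2 scale.

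Of the 4 tested metal and arsenite genes, ARR3, the arsenite exporter, fell in med7 (log2 −0.60, adjusted p = 0.0116). This 1 of 4 is about the 22.6% of all transcripts that fell there. No change was called in med21 or med10. ARR2 and ARR3 were lower in med21 than in med10, where 10.6% of all transcripts were. The median log2 fold change of the 4 was −0.26 in med7, −0.20 in med21 and 0.46 in med10. Without the med7 libraries, ARR1, the activator of the other two, ARR2 and ARR3 passed as higher in med10 (log2 0.52, 0.87 and 0.45, adjusted p = 0.0229, 0.00249 and 0.00725), and ARR3 passed as lower in med21 (log2 −0.41, adjusted p = 0.0158). ARR3 had 72.8 and 89.8 CPM in med7, 82.1 and 104 CPM in med21, 164 and 168 CPM in med10, and 129 and 117 CPM in parent; ARR2, the arsenate reductase, and a noncoding transcript cover 66.2% of it on the other strand. ARN1, a siderophore transporter, was not called and ranged from 395 to 560 CPM. PCA1, a cadmium exporter outside the list, had 154 and 211 CPM in med7, 231 and 222 CPM in med21, 522 and 458 CPM in med10, and 340 and 300 CPM in parent; it fell in med7 (log2 −0.81), and its med10 value did not pass (log2 0.61, adjusted p = 0.0587).

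Multi-copy families were thinly covered. The 2 tested seripauperins, PAU13 and PAU15, were not called against parent but were lower in med21 than in med10 (log2 −2.08 and −1.71), where 10.6% of all transcripts were. The PAU13 call was lost without any 1 of the parent, med21 or med10 libraries, and the PAU15 call without any 1 of the med21 or med10 libraries. PAU15 had 7.91 and 4.28 CPM in med7, 5.26 and 5.28 CPM in med21, 16.6 and 17.9 CPM in med10, and 7.71 and 8.38 CPM in parent. The 2 tested COS genes, COS7 and COS8, which act in sorting at multivesicular bodies, had no call against parent. The medians lay further from 0 where reads could be shared: the 24 tested genes with recurring 30-base words had medians of −0.80 in med7, −0.57 in med21 and 0.57 in med10, and the 59 with none had −0.30, −0.19 and 0.25. Among those 59, 26 fell and 7 rose in med7, 14 fell and 4 rose in med21, and 10 rose and none fell in med10, or 44.1% and 11.9%, 23.7% and 6.78%, and 16.9% and 0%, beside 22.6% and 25.9%, 3.92% and 3.88%, and 4.93% and 2.63% of all transcripts.

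ERO1 (YML130C, chromosome XIII) had 1000 and 1503 CPM in med7, 2323 and 2197 CPM in med21, 2236 and 2269 CPM in med10, and 2702 and 2641 CPM in parent. It fell 2.13-fold in med7 (log2 −1.09, SE 0.20, adjusted p = 0.00216) and was not called in med21 or med10, although all mutant libraries lay below both parent libraries. YCR102C, a quinone oxidoreductase-like gene, had 246 and 348 CPM in med7, 291 and 296 CPM in med21, 638 and 686 CPM in med10, and 682 and 664 CPM in parent. YLR460C, a similar gene on chromosome XII, had 447 and 579 CPM in med7, 457 and 544 CPM in med21, 869 and 857 CPM in med10, and 970 and 884 CPM in parent. In both the med7 and med21 libraries overlapped each other and lay well below the med10 and parent libraries. PKC1, the protein kinase C of the cell wall pathway, had a log2 fold change of −0.55 in med7, which passed.

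TOG1, a transcription factor for oleate use, had 124 and 189 CPM in med7, 311 and 257 CPM in med21, 634 and 623 CPM in med10, and 425 and 407 CPM in parent, and it fell in med7 (log2 −1.41, adjusted p = 0.00048). At the low end, YER187W, of unknown function, had 0 and 1 counts in med7, 10 and 12 in med21, 133 and 105 in med10, and 48 and 42 in parent. The med10 counts exceeded the rest and the med7 counts were almost none, so no fold is given.

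On the right arm of chromosome XIII, DIA1, a gene linked to invasive growth, had 14.1 and 29.3 CPM in med7, 54.5 and 50.5 CPM in med21, 109 and 130 CPM in med10, and 113 and 119 CPM in parent. It fell 5.26-fold in med7 and 2.21-fold in med21, with YMR316C-A covering 60.4% of it on the other strand, itself lower in med7 (log2 −1.44). YMR320W, nearer to the end, had 9.14 and 6.49 CPM in med7, 30.0 and 18.1 CPM in med21, 61.9 and 75.7 CPM in med10, and 47.9 and 51.5 CPM in parent, falls of 6.44-fold and 2.06-fold. The med21 falls of DIA1 and YMR320W were both lost without any 1 of the parent or med10 libraries or without med21 replicate 2. That of YMR320W was also lost with library size alone or a replicate block. Of the 6 tested genes on this arm, 5 fell in med7, where 22.6% of all transcripts fell. The exception was FET4, a low-affinity iron transporter (log2 −0.28, adjusted p = 0.105).

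Across chromosome arms the direction was broad. The median log2 fold change of the genes on an arm lay below 0 on 22 of 25 arms in med7, 18 in med21 and 4 in med10, and on 22 in the comparison of med21 with med10. Only 16 of the 25 arms held 3 or more tested genes, so the medians of the rest stand for 1 or 2 genes. The arms above 0 in med7 were the right arms of chromosomes VI (median 0.55), VII (0.11) and IX (0.60). On the right arm of VI, RPN12 and RET2 were higher and IRC7, nearer to the end, was lower.

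**Figure D4:**
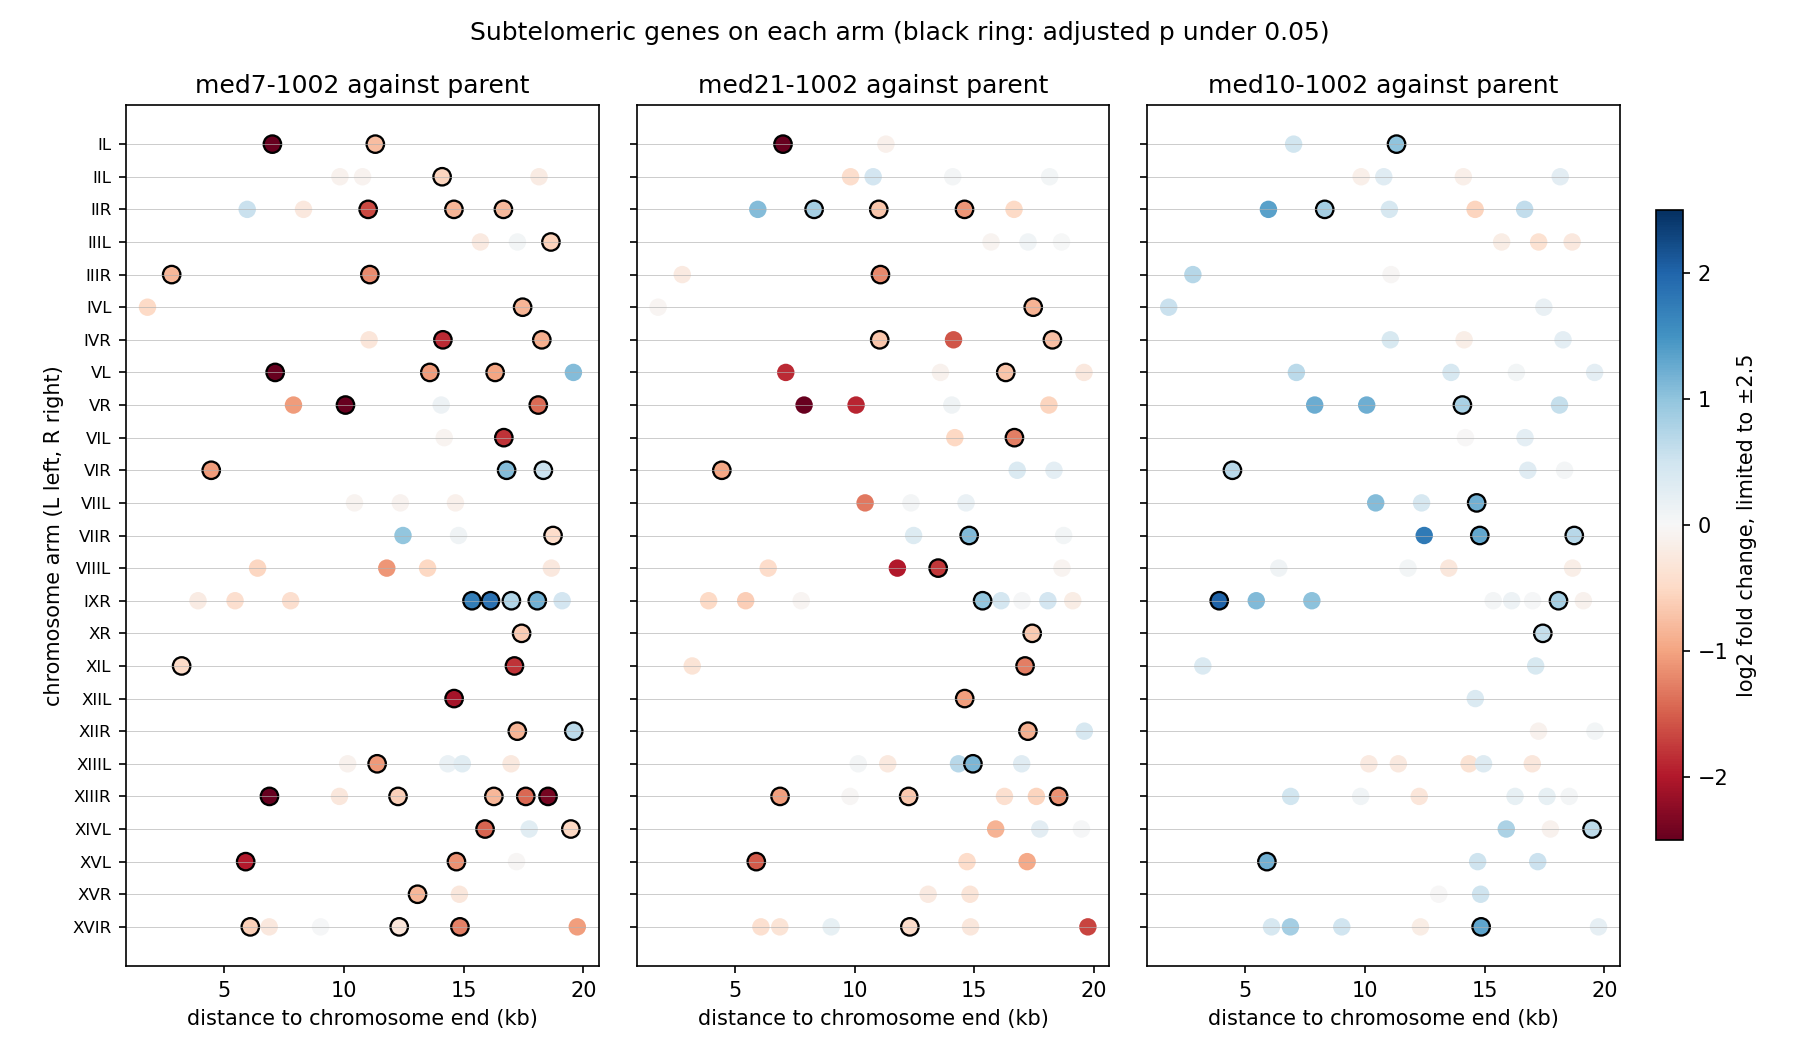
Genes placed by chromosome arm (vertical axis) and distance to the chromosome end (kb, horizontal axis), coloured by log2 fold change against parent limited to ±2.5; a black ring marks an adjusted p under 0.05. Red (lower) prevails in the med7-1002 and med21-1002 panels and blue (higher) in the med10-1002 panel, apart from the blue run at 15 to 20 kb on the right arm of chromosome IX in med7-1002.

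In med10 the values were higher nearer to the end. There the median log2 fold change was 0.68 over the 5 tested genes within 5 kb, 0.67 over 15 at 5 to 10 kb, 0.35 over 30 at 10 to 15 kb and 0.20 over 33 at 15 to 20 kb. The same bins had medians of −0.51, −0.42, −0.54 and −0.45 in med7, and −0.34, −0.44, −0.31 and −0.19 in med21. The Spearman correlation of distance with log2 fold change was 0.17 in med7, 0.16 in med21 and −0.34 in med10 over the 83 genes. The correlation of log2 fold change with parent CPM per kb was −0.47 in med10, against −0.13 in med7 and 0.06 in med21. The parent libraries enter both values, so these correlations are not free of the spread between them. For the fold change of med21 against med10, which holds no parent value, the correlation with parent level was 0.36. The part of level in the order by distance was not tested.

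The shift of the medians was small beyond the limit. Coding genes at 20 to 40 kb had medians of 0.03 in med7, −0.05 in med21 and 0.06 in med10, and those beyond 40 kb had 0.09, 0.04 and −0.03. Of the 223 tested genes at 20 to 40 kb, 68 fell in med7 and 22 in med21, and 21 rose in med10, or 30.5%, 9.87% and 9.42%, against 47.0%, 24.1% and 15.7% of the 83. Beyond 40 kb the same shares were 21.5%, 3.18% and 3.77%. In the other direction, 26.5% of the genes at 20 to 40 kb rose in med7, 3.59% rose in med21 and 3.59% fell in med10. Against med10, 21.5% of them were lower in med21 and 7.17% higher, beside 7.42% and 11.2% beyond 40 kb. Calls at 20 to 40 kb thus leaned the same way as the set, but less. The genes nearest to the limit differed among themselves: just inside it, DSF1, GAB1 and YPR195C had log2 fold changes of 1.09, 0.67 and −1.04 in med7, and just outside it PAD1, PRE4 and MGA2 had 0.05, 0.52 and −1.06. Noncoding transcripts shifted in the same directions as the set, with medians of −0.44 in med7, −0.44 in med21 and 0.28 in med10.

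**Figure D5:**
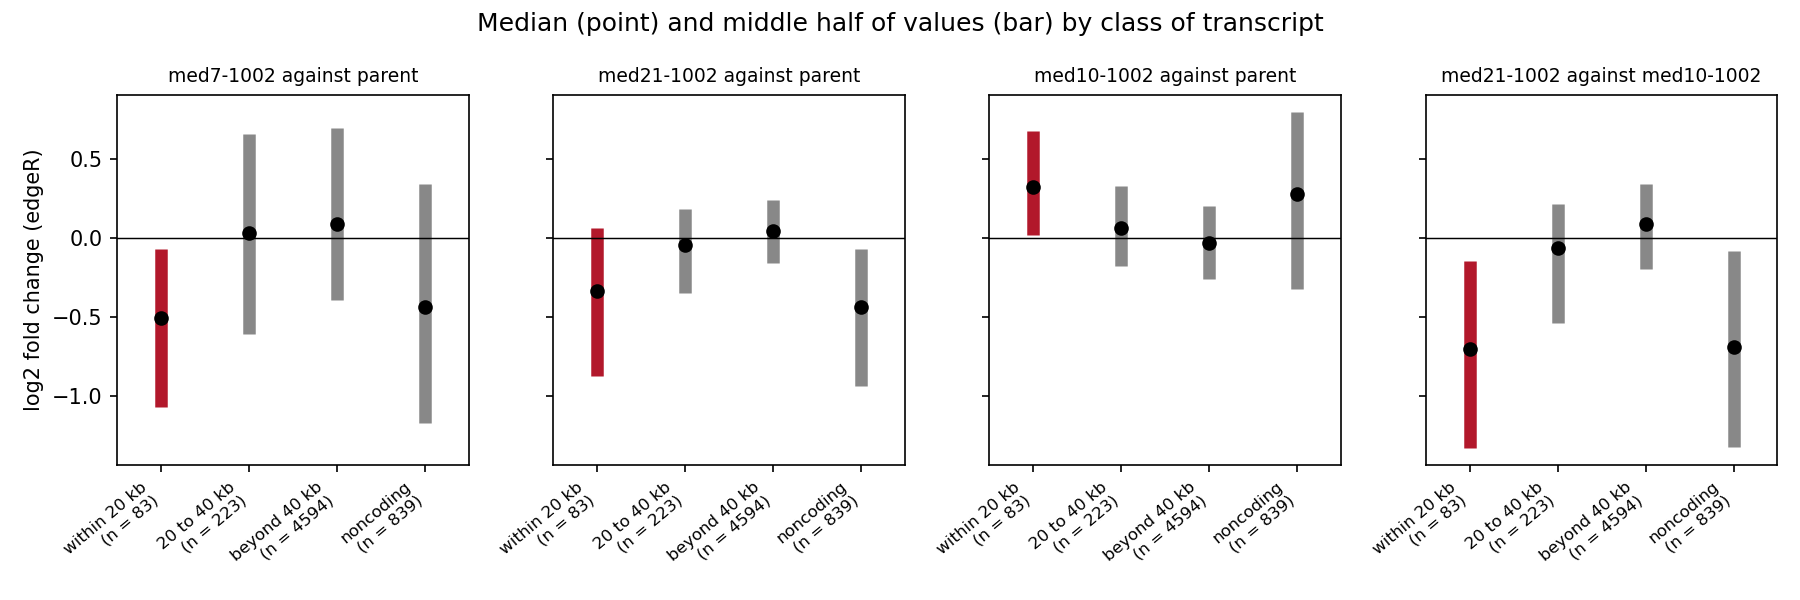
Median log2 fold change (points) and the range between the lower and upper quartile (bars) for genes within 20 kb of an end, coding genes at 20 to 40 kb and beyond 40 kb, and noncoding transcripts, in 4 comparisons. The medians of genes within 20 kb lie below 0 in med7-1002 and med21-1002 and above it in med10-1002. Their bar in med21-1002 against parent crosses 0 (upper quartile 0.06). The medians of coding genes beyond 40 kb stay near 0, and those of noncoding transcripts lie on the same sides of 0 as those of genes within 20 kb.

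The set was also read against other coding genes of like level. With all coding genes split at 36.3 and 87.4 CPM per kb of parent level, the 37 genes of the set in the lowest class had medians of −0.30 in med7, −0.33 in med21 and 0.53 in med10, against 0.25, 0.03 and 0.03 for other coding genes of that class. In the middle class 29 genes had −0.49, −0.11 and 0.31, against 0.01, 0.04 and −0.04. In the highest class 17 genes had −0.85, −0.67 and −0.02, against 0.01, 0.05 and −0.06, so that the med10 medians there were close.

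Genes for silencing factors and for regulators of subtelomeric families, which lie mostly outside the set, were read beside it. Of 19 tested genes of telomere silencing and end protection, 11 fell in med7 (median log2 fold change −0.50), where 22.6% of all tested transcripts fell, among them SIR2, SIR4, SET1, CDC13 and YKU80. In med21 2 of 19 fell, ORC1 and YKU70, where 3.92% of all transcripts fell, and in med10 1 of 19 rose, STN1, a telomere capping protein (log2 1.20), which is about the 4.93% of all transcripts that rose. STN1 had 26.6 and 33.8 CPM in med7, 48.6 and 45.7 CPM in med21, 96.8 and 100.7 CPM in med10, and 41.0 and 44.8 CPM in parent. The 10 tested regulator genes are mostly those of repressors. UPC2, which fell in med7, encodes an activator, and RPD3 is also a gene of the set. Of the 10, 6 fell and 1 rose in med7, 1 rose in med21 and 2 fell in med10. Of all transcripts, 22.6% fell and 25.9% rose in med7, 3.88% rose in med21 and 2.63% fell in med10. The riser in both was NRG2, a repressor of glucose-repressed genes, by 1.38 in med7 and 1.68 in med21 on the log2 scale, and the 2 that fell in med10 were ROX1, the repressor of hypoxic genes, and TUP1, the general corepressor, by 0.95 and 0.58. Whether these levels bear on the 88 genes was not tested.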

How the data were processed

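The authors deposited raw read counts per transcript for 8 libraries of 4-thiouracil-labelled RNA, with 1 transcript annotation. Per the submitters' processing notes, the tools were HTSeq, SAMtools and STAR 2.3.0, and the builds R64 and sacCer3. How strands, overlaps and reads of several matches were handled is not given in the sources used here. Reads set aside by the counter as ambiguous made up 0.0544% to 0.193%, and none of its tallies entered library sizes. Assigned counts per library ranged from 10962170 to 23629303.

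Genes were selected by position in the deposited annotation. Of the 88, 86 matched a RefSeq gene of R64, from whose genome the printed sequences were read. Counts of all 6030 transcripts were filtered (filterByExpr, minimum count 10), which left 5746, scaled by TMM and tested with edgeR 4.0.16 in R 4.3.3 (quasi-likelihood, all 8 libraries, a term per group, 4 residual degrees of freedom). P-values were adjusted over the 5746 by the Benjamini-Hochberg method. The fitting procedure was tested on simulated data. Fold changes are those of the fit, and standard errors come from each fold change with its F value. Alternatives were DESeq2 1.42.0 (test and size factors), library size alone, no filter, fits of 2 groups or without med7, a replicate block, a correction of fold changes for transcript length (lowess, span 0.3), other distance limits and leaving out each library.

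The named genes are, per mutant, up to 10 per direction of largest fold change past the threshold, with no overlap of mutant and parent libraries and a mean log2 CPM of 3 or more, then 5 per direction for each pair of mutants, the 10 with the highest parent level per kb, and 2 to 4 per gene list. TOG1, PCA1, PEX6, YPS6, FET4, FDC1, SGE1, MAL12 and MAL32 were named after their values were seen. The genes and lists were chosen with earlier results of these data known. Motifs were searched as letters on both strands.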

Additional observations from a re-analysis of the deposited data

How the results depend on the processing

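The median of the set kept its sign in every comparison with parent under every alternative run. It moved by more than the spread for med7 to −0.64 with library size alone, which lowers the median of all transcripts by 0.12. It also moved for med7 to −0.36 with length correction and to −0.38 with a replicate block and length correction. Within 30000 nt it was −0.25 for med7, and without the multi-copy families matched by name −0.43. For med21 it was −0.42 within 10000 nt, −0.15 within 30000 nt and −0.28 without the same families, and for med10 0.68 and 0.21 within these limits. In fits of only 2 groups, 9 rose and 32 fell in med21, 48 rose and 8 fell in med10, 3 were higher and 11 lower in med7 than in med21, and 4 and 7 were higher in med7 and med21 than in med10. Without the med7 libraries 14 rose and 39 fell in med21, 41 rose and 5 fell in med10, and 8 were higher in med21 than in med10. In med10, 1 fell with library size alone and with length correction, with or without the block, and 25 rose and 1 fell with DESeq2. With length correction, with or without the block, 3 were higher in med7 than in med21. Correlations of same-numbered libraries ran from −0.186 to 0.094, so the replicate numbers share only a number; with a replicate block 13 genes fell in med21, and 9 rose in med10. Leaving out 1 library each gave medians of −0.62 to −0.45 in med7, −0.40 to −0.29 in med21 and 0.31 to 0.38 in med10. It gave 4 to 11 higher and 28 to 48 lower genes in med7, 1 to 14 and 4 to 38 in med21, and 2 to 39 and 0 to 5 in med10. Between mutants it gave 4 to 11 and 13 to 39 for med7 against med21, 3 to 11 and 41 to 58 for med7 against med10, and 1 to 9 and 21 to 56 for med21 against med10. Single values that changed sign were ARN1 in med7 against med10 with length correction (0.24), MSC1 in med7 against parent without med7 replicate 2 (−0.34; 0.71 without replicate 1) and against med10 without med7 replicate 1 (0.39; −0.66 without replicate 2), and YCR102C in med7 against med21 without med7 replicate 2 (−0.28; 0.25 without replicate 1). Beyond what each construction changes in samples or genes, the cause was not tested. Of the named calls, 24 of 33 in med7, 4 of 20 in med21 (SEO1, BDS1, IRC7 and MAL11) and 2 of 12 in med10 (ADH4 and MAL11) held whichever library was left out. How far depth limits the counts of calls was not tested.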
